A study of Mus musculus with 12 samples.

Results

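The SLC25 carriers are a family of transport proteins, most of which pass metabolites through the inner mitochondrial membrane. The uncoupling proteins Ucp2 and Ucp3 belong to the same family. Members were the gene probes named Slc25a followed by a number, Ucp2 or Ucp3 in the array's own annotation. This gave 70 probes for 46 genes, out of 41174 gene probes on the array. A gene counted as measured if 6 or more of the 12 arrays showed a probe of it well above background, which 39 of the 46 genes met and 7 did not.

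Quadriceps RNA came from C57BL/6J males 13 weeks old, 1 mouse per array, with 6 mice that trained on a motorized treadmill for 4 weeks and 6 sedentary controls. Exercised muscle was collected 3 hours after the last bout, so the last bout and the 4 weeks of training cannot be told apart. The labels state no clock time and no time of collection for the controls. Of the defining markers of skeletal muscle fibres, 10 of 10 were measured. Whole muscle was used, so fewer cells of a type and less RNA per cell cannot be told apart. The titles number the mice within sets 1 and 2, whose meaning is not given.

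The carriers share a fold of repeated modules, each with a pair of membrane helices, and most of them exchange a substrate in the matrix for another in the space between the membranes. In muscle the most used exchange is ADP against ATP, together with phosphate entry. Other members carry the citrate, malate, aspartate, glutamate and acylcarnitine on which fuel use depends, and cofactors and iron. The uncoupling proteins are linked to proton leak and to the handling of fatty acids and other metabolites, and Ucp3 is mainly a muscle transcript.

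Transcripts of 2 of the 39 measured members rose in exercised muscle, and 0 fell, in limma's moderated test with Benjamini-Hochberg adjustment over 16526 genes and unnamed probes (adjusted p below 0.05). Of all genes tested, 1.81% were called higher and 1.84% lower, 3.65% in all. The members that rose were Slc25a25, a calcium-regulated carrier of ATP-Mg and phosphate, and Slc25a5, an ADP/ATP carrier. At an unadjusted p below 0.05, 4 members were higher and 2 lower, 6 of 39, where 16.2% of all genes passed that mark. The median log2 difference was 0.04 over the 39 members and -0.03 over all genes tested. Without Slc25a25 and Slc25a5 the other 37 members had a median of 0.02, with 20 above 0 and 17 below. For 32 of the 39 members the fitted difference was under 1.25-fold in either direction, and for 30 the whole 95% interval lay within 1.5-fold.

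**Figure D1:**
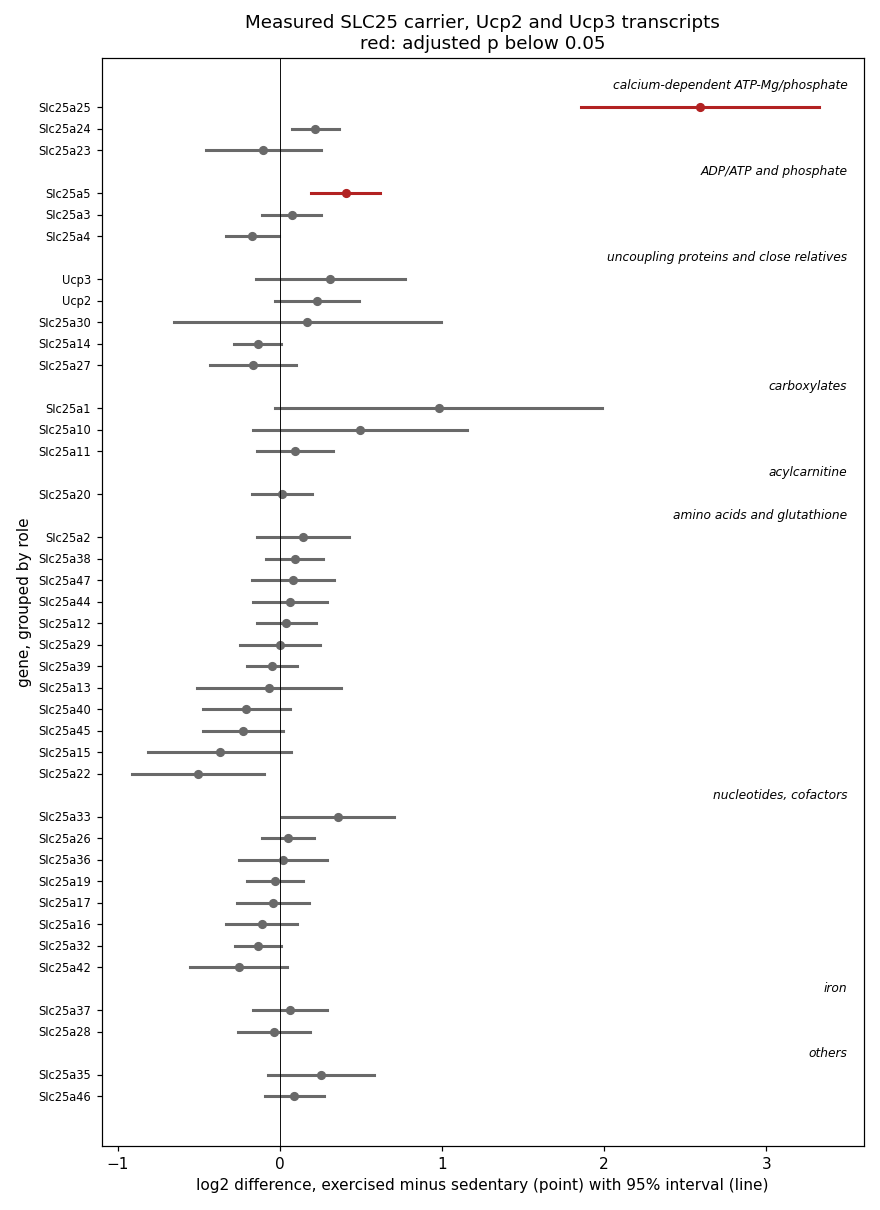
Log2 difference of exercised minus sedentary muscle for the 39 measured members, grouped by role; points are the limma estimates from 6 and 6 arrays and lines their 95% intervals. Slc25a25 at 2.59 and Slc25a5 at 0.40 are the red members past the adjusted threshold, and all others lie between -0.51 (Slc25a22) and 0.98 (Slc25a1).

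The ATP-Mg/phosphate carriers change the size of the adenine nucleotide pool in the matrix. Those regulated by calcium, Slc25a25 among them, are switched on through domains that face the space between the membranes. Slc25a25 signal, given here and below as a multiple of the array's own 75th percentile, ran from 20.4 to 55.5 in exercised muscle with a median of 41.2. In sedentary muscle it ran from 3.48 to 11.5 with a median of 6.09. The lowest exercised mouse thus lay above the highest sedentary mouse. Groups that do not overlap in the higher direction were found in 1.39% of all genes, and Slc25a25 was the 1 member among them. In the lower direction the share was 1.62%, with 0 members. The difference was 6.03-fold (95% interval 3.62 to 10; log2 2.59, SE 0.34; adjusted p = 0.0012 in limma). Sedentary mice spread over more than 3-fold, with 3 mice between 3.48 and 4.30 and 3 between 7.88 and 11.5.

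Slc25a25 was read by 3 probes, whose log2 differences were 2.59, 2.55 and 2.60. The probes lie on chromosome 2, minus strand, in the array's mm9 annotation. The brightest, used for the values above, spans chr2:32270275-32270334, and another spans chr2:32270611-32270670. The third covers 330 genomic bases, chr2:32272932-32273261, so that its 60 bases are not contiguous in the genome, and its adjusted p over all probes taken singly was 0.0016. It is shown because it reads the transcript at another place than the brightest probe.
Slc25a25, probe A_52_P359088: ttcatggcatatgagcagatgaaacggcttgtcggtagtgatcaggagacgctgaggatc

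With slide as a block the Slc25a25 difference was 2.70 (adjusted p = 0.0051 in limma), and within slides 1, 2 and 3 it was 2.29, 3.34 and 2.52. Slide 1 holds 1 exercised and 3 sedentary arrays, slide 2 holds 3 and 1, and slide 3 holds 2 and 2, so within-slide values here and below rest on few arrays and have no replicate in an arm on slides 1 and 2. With each array left out in turn it stayed between 2.42 and 2.77, and the gene was called in 12 of 12 such fits. RefSeq (GRCm38.p6) gives Slc25a25 3 start windows of 300 bases each. The palindrome TGACGTCA, the letters of a cAMP response element, was found in 1 of them, 142 bases before the start. The 250 bases before that start, chr2:32424067-32424316 on the minus strand of GRCm38.p6, are printed with the match in capitals because this gene carries the largest difference of the family.
Slc25a25, upstream: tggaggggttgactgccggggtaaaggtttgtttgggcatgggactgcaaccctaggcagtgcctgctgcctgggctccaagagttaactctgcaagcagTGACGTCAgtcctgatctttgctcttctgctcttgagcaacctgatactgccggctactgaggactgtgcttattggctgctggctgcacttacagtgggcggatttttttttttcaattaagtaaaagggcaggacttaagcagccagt

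The same letters stood in 2 of 45 windows of 36 member genes found in the table (Slc25a25 and Slc25a36) and in 1.79% of all 32851 windows, both strands searched. Slc25a36, a pyrimidine nucleotide carrier with the same letters, had a log2 difference of 0.02 (adjusted p = 0.97 in limma). The shorter TGACG, contained in the palindrome, was in 14 of the 45 member windows (13 of the 36 genes) and in 20.8% of all windows (23% of all genes). AAGGTCA, letters bound by oestrogen-related receptors, was in 1 of the 45 member windows (Slc25a34) and in 4.72% of all windows. The glucocorticoid response element was in 0 of the 45 member windows and in 0.14% of all windows. These are matches of letters, and which start is used in muscle was not measured.

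The ATP-Mg/phosphate relatives of Slc25a25 that could be tested did not pass the threshold. Slc25a24, a further ATP-Mg/phosphate carrier, ran from 0.913 to 1.06 (median 0.95) in exercised and from 0.739 to 0.939 (median 0.83) in sedentary muscle. The ranges overlapped in a narrow band, and the difference was 1.16-fold (1.05 to 1.29; adjusted p = 0.11 in limma). The other Slc25a24 probe was well above background on 0 of 12 arrays and was not kept. Slc25a23 was near background, above it on 4 of 6 exercised and 5 of 6 sedentary arrays, and its log2 difference was -0.10. Slc25a41 was well above background on 1 of 12 arrays and was not tested.

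Related members were also set against each other within each array, which removes the scaling between arrays. The 4 pairs were chosen after the values were seen, so their ratios are descriptions with no test. The log2 ratio of Slc25a25 to Slc25a24 was higher by 2.37 in exercised muscle, at 5.29 ± 0.50 (SD, n = 6) against 2.92 ± 0.84, with no overlap. Within the slides it differed by 2.0, 3.12 and 2.37.

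The ADP/ATP carriers exchange the ATP made in the matrix for cytosolic ADP, and Slc25a4 is the isoform typical of heart and skeletal muscle, while Slc25a5 is found in many tissues. Slc25a5 signal ran from 31.3 to 43.6 in exercised muscle (median 37.3) and from 25.9 to 34.0 in sedentary muscle (median 27.1). Of the exercised mice, 5 lay above all sedentary mice, and the mouse of set 2, animal 3 lay among them. The rise was 1.32-fold (1.14 to 1.53; log2 0.40, SE 0.10; adjusted p = 0.041 in limma). With slide as a block the log2 difference was 0.39 (adjusted p = 0.12), and within the slides it was 0.38, 0.56 and 0.28. The call was close to the threshold: it was lost with quantile scaling (adjusted p = 0.057), with median scaling (0.094) and with 9 of the 12 arrays left out singly (0.062 to 0.092), at log2 differences of 0.36 to 0.41. It was kept without exercised set 2 animal 3, sedentary set 1 animal 1 or sedentary set 2 animal 5 (adjusted p of 0.023 to 0.042).

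Slc25a4 signal ran from 903 to 1110 in exercised muscle (median 1040) and from 1050 to 1310 in sedentary muscle (median 1150). Exercised mice were the lower group here, with 4 of 6 below all sedentary mice, and the log2 difference was -0.17 (SE 0.08; adjusted p = 0.28 in limma). It was -0.11 with slide as a block, -0.03 with quantile scaling, and -0.11 at the other probe of the gene. Slc25a3, the phosphate carrier, ran from 114 to 160 (median 147) in exercised and from 125 to 149 (median 135) in sedentary muscle. Its groups overlapped over most of their range, at 1.05-fold (0.927 to 1.19; adjusted p = 0.75). Slc25a31, a further ADP/ATP carrier, was well above background on 1 of 12 arrays.

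As a description of the same values, the log2 ratio of Slc25a5 to Slc25a4 within an array was higher by 0.58 in exercised muscle, with values of -4.98 to -4.41 against -5.64 to -4.95 in sedentary muscle. The ranges overlapped narrowly. The difference was 0.52, 0.70 and 0.34 within the slides and 0.51 to 0.65 with each array left out. The ratio itself compares different probes and was not read as a ratio of transcripts. The 60-base probes of both genes read the same stretch near the end of the coding sequence. They are printed because the comparison rests on their telling 2 like transcripts apart, with the differing letters in capitals: 9 mismatches over 54 aligned bases.
Slc25a4, probe A_51_P108334: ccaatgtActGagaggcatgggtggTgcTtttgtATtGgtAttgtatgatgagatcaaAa
Slc25a5, probe A_51_P475446: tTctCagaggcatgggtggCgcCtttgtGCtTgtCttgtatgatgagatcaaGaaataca

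In mm9 the Slc25a4 probe is at chr8:47292828-47292887 on the minus strand and the Slc25a5 probe at chrX:34338475-34338534 on the plus strand. Binding of either probe to the other gene's transcript was not tested.

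**Figure D2:**
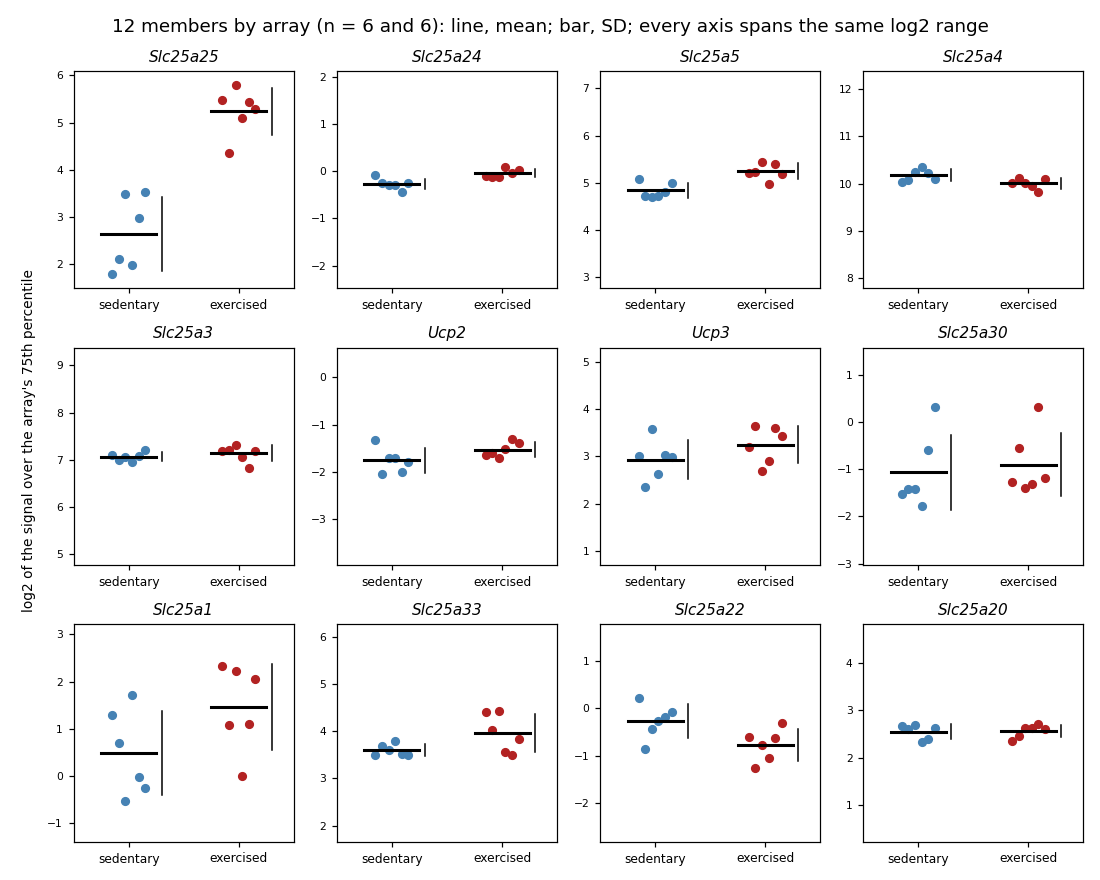
Log2 of the signal over the array's 75th percentile for 12 members, 1 point per mouse (6 sedentary in blue, 6 exercised in red), with the mean as a line and the SD as a bar; all panels span an equal log2 range. Slc25a25 is the panel whose groups do not overlap, Slc25a5 overlaps at 1 exercised mouse, and Slc25a30 has 1 high mouse in each group, both at a signal of 1.25.

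The uncoupling proteins and their close relatives held 5 measured members, of which 0 passed the threshold. Ucp3 signal ran from 6.41 to 12.5 in exercised muscle (median 9.96) and from 5.13 to 11.9 in sedentary muscle (median 8.0). Nearly the whole range was shared, and 2 exercised mice lay above all sedentary mice. The fitted difference was 1.24-fold, with an interval of 0.902 to 1.71 (adjusted p = 0.53 in limma). It was positive within each slide, at 0.36, 0.70 and 0.40, and 0.48 with slide as a block (adjusted p = 0.32).

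Ucp2, which is widespread in leukocytes and other non-muscle cells, ran from 0.304 to 0.407 (median 0.339) in exercised and from 0.242 to 0.401 (median 0.298) in sedentary muscle. The groups overlapped over most of that span, at 1.17-fold (0.98 to 1.4; adjusted p = 0.38 in limma). The other Ucp2 probes were well above background on 4 and 0 of 12 arrays and were not kept. The ratio of Ucp3 to Ucp2 within an array differed by 0.08 on the log2 scale, with 4.40 to 5.24 in exercised and 4.33 to 5.28 in sedentary muscle.

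Slc25a30, a relative of the uncoupling proteins, varied 4.28-fold over the 12 arrays. Its signal had a median of 0.425 in exercised and 0.376 in sedentary muscle, and reached 1.25 in exercised set 2 animal 4 and in sedentary set 2 animal 5. Both probes kept for the gene put their lowest and highest values at 0.378 to 1.25 and 0.194 to 0.59 in exercised muscle, so the spread was seen at both. The log2 difference of 0.17 (adjusted p = 0.88 in limma) became -0.08 without exercised set 2 animal 4. Slc25a14 and Slc25a27, the other relatives, had log2 differences of -0.14 and -0.17.

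The carboxylate carriers move citrate (Slc25a1), malate and succinate (Slc25a10) and oxoglutarate in exchange for malate (Slc25a11). All 3 measured members were above 0, and 0 passed the threshold. Slc25a1 ran from 0.999 to 5.06 (median 3.15) in exercised and from 0.698 to 3.27 (median 1.31) in sedentary muscle. Of the exercised mice, 3 lay above all sedentary mice, at 4.16 to 5.06. The difference was 1.97-fold, with an interval of 0.977 to 3.97 (adjusted p = 0.33 in limma). Slc25a10 ran from 1.23 to 3.33 against 1.11 to 2.89, at 1.41-fold (0.889 to 2.22; adjusted p = 0.49). Slc25a11, the oxoglutarate carrier of the malate-aspartate shuttle, ran from 96.3 to 152 against 111 to 140 (medians 135 and 120), at 1.06-fold (adjusted p = 0.76).

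Slc25a1 and Slc25a10 moved together across the mice, and with markers of adipocytes. After removal of the group means their log2 signals had r = 0.98 over the 12 arrays (Spearman's rho before removal 0.97). Permutation within groups gave p = 8e-05, or 0.059 adjusted over the 741 pairs of members, of which 0 passed 0.05 adjusted and 70 unadjusted. Without the 2 arrays farthest from the Slc25a1 median r was 0.98, and with slide means removed 0.99.

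Each member was further set against the scores of 8 lists of cell type markers, where a score is the log2 signal of the list's genes, each centred on its own mean, averaged for an array. Of 312 such relations, 3 passed 0.05 after Benjamini-Hochberg adjustment of the permutation p of Pearson's r, and 7 passed by Spearman's rho. Slc25a10 with the white adipocyte score had r = 0.93 (permutation p = 5e-05, adjusted 0.016) and rho = 0.94 (p = 2e-05, adjusted 0.0062), with 0.90 without the 2 farthest arrays. Slc25a1 with the same score had r = 0.91 (permutation p = 0.0001, adjusted 0.016) and rho = 0.92 (p = 6e-05, adjusted 0.0094), with 0.88 without the 2 farthest arrays. Within exercised and within sedentary mice r was 0.90 and 0.99 for Slc25a10 and 0.93 and 0.97 for Slc25a1. With slide means removed r was 0.95 and 0.92, and each slide holds 4 arrays, too few for a value of its own.

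The white adipocyte list had 7 of 7 markers measured, 0 of them called, and a score of -0.79 to 1.11 in exercised and -0.94 to 0.91 in sedentary muscle. Its summed signal ran from 243 to 877 in exercised and from 150.0 to 780 in sedentary muscle. With that score as a covariate, added after the values were seen, the log2 difference of Slc25a1 was 0.62 (adjusted p = 0.062 in limma) in place of 0.98. With the brown adipocyte score in its place it was 0.12 (adjusted p = 0.91), and the Slc25a10 difference went from 0.49 to -0.04 (adjusted p = 0.96). The Slc25a10 difference was 0.26 with the white adipocyte score (adjusted p = 0.27). With the tendon score the 2 differences were larger, at 1.70 and 0.96 (adjusted p of 0.17 and 0.24). The brown adipocyte score had means of 0.70 in exercised and -0.70 in sedentary muscle, so fits with it, here and below, do not fully separate the list from the group. With the brown adipocyte score itself Slc25a1 had r = 0.82 (permutation p = 0.0018, adjusted 0.079) and rho = 0.85 (p = 0.00078, adjusted 0.041), with r = 0.71 without the 2 farthest arrays. Slc25a10 had r = 0.77 (permutation p = 0.0058, adjusted 0.13) and rho = 0.84 (p = 0.00097, adjusted 0.043), with r = 0.64 without them. With group means removed r was 0.75 for Slc25a1 and 0.72 for Slc25a10.

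**Figure D3:**
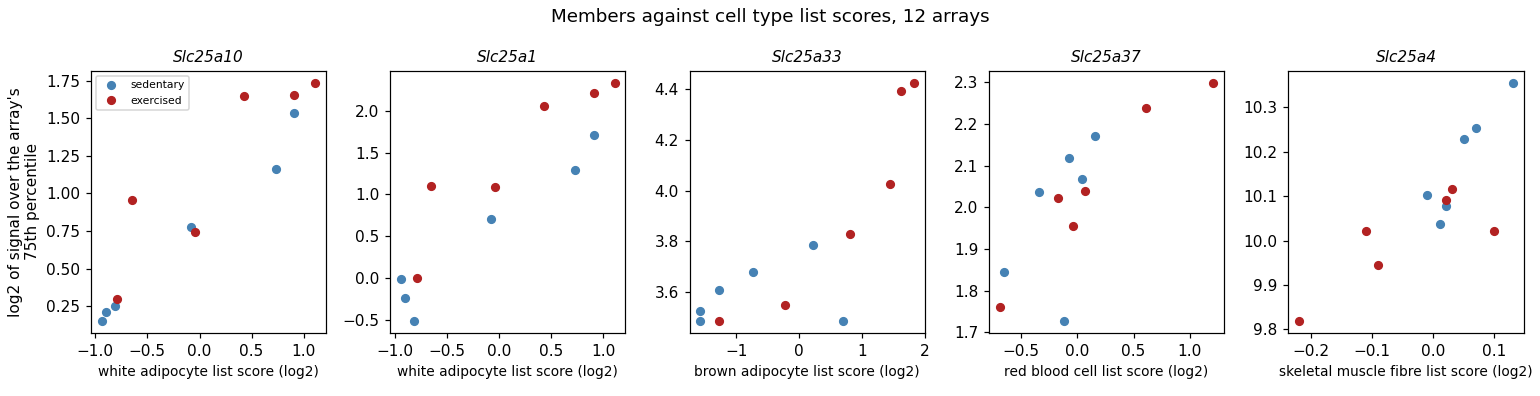
Log2 signal of 5 members over the array's 75th percentile against the score of a cell type marker list, 1 point per array, 6 sedentary in blue and 6 exercised in red. Slc25a10 and Slc25a1 climb with the white adipocyte score in both groups (r = 0.93 and 0.91 over 12 arrays), Slc25a33 with the brown adipocyte score (0.82), Slc25a37 with the red blood cell score (0.81) and Slc25a4 with the muscle fibre score (0.82).

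The acylcarnitine carrier Slc25a20 brings acylcarnitines into the matrix for oxidation. Its signal ran from 5.07 to 6.53 (median 6.13) in exercised and from 5.02 to 6.42 (median 6.12) in sedentary muscle, and the ranges nearly coincided. The difference was 1.01-fold, with an interval of 0.886 to 1.15 (adjusted p = 0.97 in limma). Its partners in the carnitine shuttle (Cpt1a, Cpt1b, Cpt2, Crat, Slc22a5 and Acsl1) had a median log2 difference of -0.05, with 0 of 6 called and 1 below 0.05 unadjusted.

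The carriers of amino acids and glutathione were the largest group, with 12 of 14 measured and 0 called, 5 above 0 and 7 below (median log2 -0.03). Slc25a12, the aspartate/glutamate carrier of the malate-aspartate shuttle, ran from 72.0 to 101 (median 87.1) against 77.2 to 89.1 (median 84.9), at 1.03-fold (0.905 to 1.16; adjusted p = 0.88 in limma). Its 3 probes gave log2 differences of 0.04, 0.00489 and -0.30, so they did not share a direction. The probes were far apart in level. The probe with 0.00489 ran from 0.543 to 0.643 against 0.48 to 0.731, and the probe with -0.30 from 0.19 to 0.258 against 0.243 to 0.292. Slc25a22, a glutamate carrier, ran from 0.417 to 0.804 (median 0.615) against 0.547 to 1.16 (median 0.858). It had the most negative fitted value of the family, -0.51 on the log2 scale (SE 0.19; adjusted p = 0.18). Within the slides that value was -0.06, 0.06 and -0.95, largest in size on slide 3, and it was -0.38 with slide as a block (adjusted p = 0.43).

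The other measured carriers of amino acids and glutathione lay between -0.37 (Slc25a15) and 0.14 (Slc25a2) on the log2 scale. Slc25a15, an ornithine carrier, was above background on 2 of 6 exercised and 5 of 6 sedentary arrays, so its level in exercised muscle is mostly a bound. The glycine carrier Slc25a38 had a difference of 0.09. Slc25a39 and Slc25a40, linked to glutathione import, had -0.05 and -0.21. Slc25a44, a carrier of branched-chain amino acids, had 0.06.

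Among the enzymes that work with these carriers in the malate-aspartate and glycerophosphate shuttles, 1 of 6 was called. Got1, the cytosolic aspartate aminotransferase, ran from 95.4 to 111 in exercised and from 74.1 to 92.3 in sedentary muscle, without overlap. Its rise was 1.28-fold (log2 0.35, SE 0.07; adjusted p = 0.013 in limma). Slc25a11 and Slc25a12 of the same shuttle had the values given above and were not called.

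The carriers of nucleotides and cofactors had 8 of 8 members measured and 0 called (median log2 -0.04). Slc25a33, a pyrimidine nucleotide carrier, ran from 11.2 to 21.5 (median 15.3) in exercised and from 11.2 to 13.8 (median 11.8) in sedentary muscle. Its exercised mice were spread, with 4 above all sedentary mice and 2 within their range. The difference was 1.28-fold (1.01 to 1.63; adjusted p = 0.29 in limma), and 0.39 on the log2 scale with slide as a block (adjusted p = 0.38). The other probe of Slc25a33, which maps over 3134 genomic bases at chr4:149123432-149126565 in mm9, ran from 2.20 to 3.79 against 1.68 to 2.13. It did not overlap between the groups, and its log2 difference was 0.50 (SE 0.12; adjusted p = 0.043 over all probes taken singly, where 3.32% of probes were called). The share of all probes without overlap was not counted, and among genes, each by its brightest probe, it was 1.39% in the higher direction. The probes thus shared a direction and differed in the call.

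Slc25a33 followed the brown adipocyte score with r = 0.82 (permutation p = 0.00027, adjusted 0.028 over 312) and rho = 0.74 (p = 0.0081, adjusted 0.23), and r was 0.72 without the 2 farthest arrays. Within exercised mice r was 0.92 and within sedentary mice 0.29. The brown adipocyte list had 5 of 6 markers measured, 0 called and 2 with an unadjusted p below 0.05 (Ucp1 and Cidea), a score of -1.27 to 1.83 in exercised and -1.57 to 0.70 in sedentary muscle, and a summed signal of 607 to 897 and 679 to 809. Most of that sum was Cox7a1 (431 to 598 in exercised and 449 to 541 in sedentary muscle) and Cox8b (166 to 271 and 196 to 266). Their log2 differences were 0.01 and -0.10. The sum thus follows these genes and was not read as an amount of brown adipocyte RNA. Whether their signal came from muscle fibres or adipocytes was not tested. Cidea, a lipid droplet protein gene, had a log2 difference of 1.79 (adjusted p = 0.26 in limma). Kcnk3 had 0.96 (adjusted p = 0.39 in limma). Ucp1, the uncoupling protein of brown fat and not a member by the rule, was well above background on 5 of 6 exercised and 2 of 6 sedentary arrays. Its signal ran from 0.0114 to 9.50 against 0.00704 to 0.683, and its log2 difference of 4.35 (SE 1.60) had an adjusted p of 0.18 in limma. The score averages centred log2 signals and is not weighted by level as the sum is. Ucp1, with the widest range of the 5 markers and several arrays near background, thus moved the score most, and Cox7a1 and Cox8b little. With the brown adipocyte score as a term in the fit the Slc25a33 difference was 0.07 (adjusted p = 0.84 in limma), in place of 0.36. With the white adipocyte score it was 0.27 (adjusted p = 0.295) and with the tendon score 0.64 (adjusted p = 0.097).

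Slc25a32, a carrier linked to folate and FAD, ran from 0.402 to 0.501 (median 0.438) in exercised and from 0.455 to 0.529 (median 0.484) in sedentary muscle. All but 1 exercised mouse lay below the sedentary range, at a log2 difference of -0.14 (SE 0.06; adjusted p = 0.32 in limma). Slc25a42, a carrier of coenzyme A, was near background and ran from 0.0618 to 0.114 against 0.0941 to 0.124. It was above background on 5 of 6 exercised arrays, with a log2 difference of -0.25 (adjusted p = 0.40). The other 5 lay between -0.11 (Slc25a16) and 0.05 (Slc25a26), and Slc25a26, which carries S-adenosylmethionine, spanned 1.24-fold over all 12 arrays, the least of the 39 members.

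The mitoferrins bring iron to the sites of haem and iron-sulphur cluster synthesis. Slc25a37 ran from 3.39 to 4.92 (median 4.08) in exercised and from 3.31 to 4.50 (median 4.14) in sedentary muscle, at 1.04-fold (0.89 to 1.22; adjusted p = 0.85 in limma). Slc25a28 ran from 9.42 to 12.4 (median 10.5) against 8.70 to 13.3 (median 10.9), at a log2 difference of -0.04 (adjusted p = 0.91). Both overlapped over most of their range, and the ratio of Slc25a37 to Slc25a28 differed by 0.10 on the log2 scale. Slc25a37, known for its role in red cell precursors, had r = 0.81 with the red blood cell score (permutation p = 0.0012, adjusted 0.072) and rho = 0.83 (p = 0.0017, adjusted 0.067), and r = 0.67 without the 2 farthest arrays. That list had 6 of 7 markers measured and 0 called, with a score of -0.69 to 1.21 in exercised and -0.65 to 0.16 in sedentary muscle and a summed signal of 124 to 324 and 119 to 223.

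**Figure D4:**
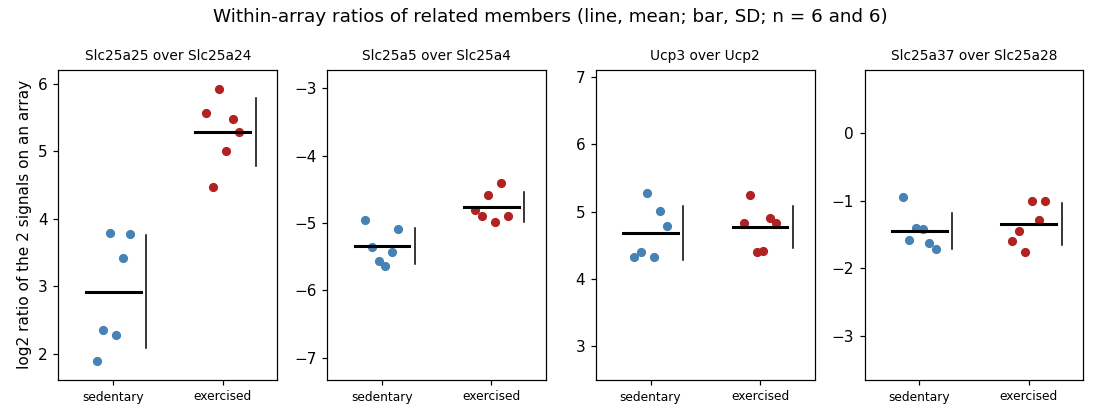
Log2 ratio of 2 related members on the same array for 4 pairs, 1 point per mouse, with the mean as a line and the SD as a bar (6 sedentary, 6 exercised). The ratio of Slc25a25 to Slc25a24 does not overlap between the groups, Slc25a5 over Slc25a4 overlaps narrowly, and the means of Ucp3 over Ucp2 and Slc25a37 over Slc25a28 differ by 0.08 and 0.10.

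Slc25a35 and Slc25a46, outside these roles, had log2 differences of 0.25 and 0.09. The 7 members not measured were Slc25a18, Slc25a31, Slc25a34 and Slc25a41, each well above background on 1 of 12 arrays, and Slc25a21, Slc25a43 and Slc25a48 on 0. Slc25a34, an orphan carrier listed here among those known in muscle, thus has no fold.

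Over the 12 arrays the members differed widely in how much they varied. Slc25a25 spanned 15.9-fold, Slc25a1 7.24-fold, Slc25a30 4.28-fold, Slc25a10 3.01-fold, Slc25a15, near background, 2.93-fold, Slc25a22 2.78-fold and Ucp3 2.43-fold. The carriers of ADP/ATP, phosphate and acylcarnitine spanned 1.68-fold (Slc25a5), 1.46-fold (Slc25a4), 1.4-fold (Slc25a3) and 1.30-fold (Slc25a20). Of the 13 members with more than 1 kept probe, 10 had all probes on the same side of 0, and 3 (Slc25a12, Slc25a26 and Slc25a29) did not.

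The listed transport genes of the mitochondrial membranes outside the family were not called. Of 22 measured genes for inner membrane transport outside the family, 0 passed the threshold and 3 had an unadjusted p below 0.05 in limma, with a median log2 difference of -0.04. Mpc1 and Mpc2, which form the pyruvate carrier, had differences of 0.03 and 0.05. Of 8 genes for passage through the outer membrane 0 were called, with 0 below 0.05 unadjusted, and the porin gene Vdac1 had -0.15 (adjusted p = 0.59). Of 7 measured genes that respond to PPAR along with Ucp3, 0 were called and 1 had an unadjusted p below 0.05, with a median of -0.09.

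The other marker lists gave the following values beside these results. The tendon list had 6 of 6 markers above 0, 0 called and 5 with an unadjusted p below 0.05. Its score was -0.35 to 1.00 in exercised and -1.57 to 0.10 in sedentary muscle, and its summed signal 62.1 to 152 and 27.2 to 80.9. The endothelium list had 2 of 5 markers called lower (Kdr and Cldn5). Its scores did not overlap between the groups, at -0.38 to -0.14 and -0.05 to 0.40, so the list and the group cannot be told apart, and its summed signal was 9.89 to 11.9 and 13.5 to 19.1. Slc25a25 had r = -0.80 with that score (permutation p = 0.0032, adjusted 0.11; rho -0.85, p = 0.00077, adjusted 0.041; r = -0.80 without the 2 farthest arrays), and within exercised and within sedentary mice r was -0.42 and 0.14. The slow fibre, leukocyte and skeletal muscle fibre lists had 0 of 27 measured markers called, with scores of -0.59 to 1.34 and -1.34 to 0.77, -0.21 to 0.29 and -0.43 to 0.53, and -0.22 to 0.10 and -0.01 to 0.13 in exercised and sedentary muscle. Their summed signals were 314 to 817 and 412 to 667, 62.7 to 95.8 and 43.2 to 109, and 8380 to 10500 and 9600 to 10900.

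With the tendon score as a covariate, the Slc25a25 difference was 2.55 (adjusted p = 0.017 in limma) and the Slc25a5 difference 0.41 (adjusted p = 0.17). With the white and the brown adipocyte scores Slc25a25 had 2.70 and 2.98 (adjusted p of 0.00099 and 0.0026), and Slc25a5 had 0.39 and 0.36 (adjusted p of 0.058 and 0.16). Slc25a4 had r = 0.82 with the muscle fibre score (permutation p = 0.0011, adjusted 0.072; rho 0.69, p = 0.016, adjusted 0.27; 0.72 without the 2 farthest arrays). Slc25a27 had r = 0.74 with the same score (permutation p = 0.0057, adjusted 0.13; rho 0.87, p = 0.0006, adjusted 0.041; 0.85 without the 2 farthest arrays and 0.51 with slide means removed). Slc25a24 had r = 0.75 with the tendon score (permutation p = 0.0048, adjusted 0.13; rho 0.89, p = 0.00032, adjusted 0.033; 0.79 without the 2 farthest arrays). Both had higher means in exercised muscle, and with group means removed r was 0.53, with 0.89 within exercised and 0.32 within sedentary mice. For Slc25a4 and Slc25a27 with the muscle fibre score r was 0.76 and 0.69 with group means removed. Ucp2 had r = 0.67 with the leukocyte score (permutation p = 0.018, adjusted 0.23; rho 0.57, p = 0.06, adjusted 0.52; 0.40 without the 2 farthest arrays and 0.83 with group means removed). The part of other cell types in the members' differences was not tested beyond these covariates.

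The effect of exercise was also compared between title sets 1 and 2 as an interaction in limma. Of all 16526 genes and unnamed probes 0% passed the threshold and 8.74% had an unadjusted p below 0.05. Of the 39 members 0 passed, 4 had an unadjusted p below 0.05, and the lowest adjusted p was 0.53.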

How the data were processed

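Total RNA of quadriceps was labelled with Cy3 and hybridised to 12 one-colour Agilent arrays, per the labels' protocols. The authors deposited scanner files, whose processed signal is an intensity on a linear scale, background-subtracted per the file headers, which name Feature Extraction 10.5.1.1; the submitters' processing notes name version 9.1. A deposited value table held the same intensity for every probe with 1 spot (100% within 0.1%) and served as an alternative.

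Control and outlier spots were dropped and spots of a probe averaged. The log2 signal minus each array's 75th percentile was used. Probes well above background on at least 6 arrays were kept (22916), the brightest probe stood for its gene, and limma 3.58.1 (R 4.3.3) compared the groups without a block. The fitting step was tested on simulated data. Intervals are 95% intervals. The number of arrays limits the precision. Probes well above background numbered 22414 to 24858 on exercised and 21707 to 25229 on sedentary arrays, and arrays correlated across genes at 0.984 or more within exercised and 0.986 or more within sedentary muscle. No member probe was saturated.

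Names are those of the files; for 65 of 70 member probes the RefSeq table gives the same symbol. Members described by their values in the samples were those called, those without overlap, the 6 with the smallest p of the rest, and a list of 14 well known in muscle; other members are given by their log2 difference within their role. Slc25a10, Slc25a27 and Slc25a36 were taken up further after their values or promoter were seen. The members and lists were chosen with earlier results of these data known. The arrays lay on 3 slides of 4; every slide held both groups, but in 2 of the 3 slides 1 group had a single array. Alternatives were quantile and median scaling, normexp, the deposited table, other filters and probe rules, slide or title set as a block, other variance models and leaving out each array; background subtraction with an offset of 50 and list scores as covariates were added after seeing the data. Correlations have two-sided p-values from 100000 permutations, adjusted with scipy 1.17.1. For pairs of members the arrays were permuted within groups. For marker scores they were permuted over both groups, so a group difference shared by member and score enters r, rho and p. The 4 set and animal numbers shared by both groups correlated at -0.187 to 0.283 and were not taken as pairs.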

Additional observations from a re-analysis of the deposited data

Results flagged for a closer look

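In 2 of the 78 groups of 6 arrays examined (39 members in each condition), 1 array stood apart from the other 5 by Dixon's criterion; chance gives about 1 in 20. Slc25a36 had a signal of 1.06 in exercised set 2 animal 1, against 0.631 to 0.756 in the other exercised mice. Slc25a46 had 17.4 in exercised set 1 animal 1, against 12.5 to 14.1 in the others.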

How the results depend on the processing

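Of 611 values under alternatives, for the 18 measured members that the rule for described members gives, 552 kept direction and side of the threshold, 28 lost a call and 31 changed sign, all among differences that were not called. Limma called 2 members higher and 603 genes. With every probe on its own 3 members were called higher, Slc25a33 among them by its dimmer probe. Members called higher numbered 1 with quantile or median scaling, no filter on dim probes, slide or title set as a block, the shared numbers without a block, and the white adipocyte, brown adipocyte or tendon score, and 1 to 2 with each array left out. They numbered 0 with normexp, within slides 1, 2 and 3, and with the replicate block on shared numbers; unadjusted, 1, 1, 2, 3 and 5 members were higher at p below 0.05 in limma there. Members called lower numbered 0 in limma under every alternative run, with 0 to 5 lower at an unadjusted p below 0.05. All genes called numbered 0 with normexp (107 unadjusted), 316 with no filter, 350 with slide as a block, 0, 8 and 0 within the slides (1009, 970 and 2151 unadjusted), 1012 at adjusted p below 0.10, 392 with the brown adipocyte and 300.0 with the tendon score. On the 8 arrays with shared numbers 130 genes were called without and 29 with the replicate block; Slc25a25 then had 2.53 (adjusted p = 0.056). Normexp failed on 4 arrays, where it put the median spot at 744 to 2290 against 72.6 to 82.5 on the others; background subtraction with an offset of 50 called 524 genes.

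Signs changed as follows (log2): with normexp Slc25a4 0.10, Ucp2 -0.0039 and Slc25a28 0.21; with background subtraction Slc25a28 0.019; with the mean of probes Slc25a12 -0.085; with slide as a block Slc25a20 -0.018; within slide 1 Slc25a12 -0.12 and Slc25a30 -0.23; within slide 2 Slc25a11 -0.0031, Slc25a12 -0.10 and Slc25a22 0.06; within slide 3 Slc25a20 -0.13, Slc25a28 0.13 and Slc25a37 -0.11; on shared numbers, with or without the replicate block, Slc25a20 -0.042. With the brown adipocyte score Slc25a3 had -0.022, Slc25a11 -0.019 and Slc25a12 -0.029, and Slc25a10, outside those 18, -0.043 in place of 0.49; with the tendon score Slc25a20 had -0.092, Slc25a28 0.0695, Slc25a30 -0.16 and Slc25a37 -0.036. With each array left out Slc25a12 ran from -0.0082 to 0.089, Slc25a20 from -0.032 to 0.056, Slc25a28 from -0.10 to 0.021 and Slc25a30 from -0.077 to 0.45. Apart from normexp, the cause was not tested. Signals near background (Slc25a15, Slc25a23, Slc25a42) limit what can be said of those members.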
